A study of Homo sapiens with 6 samples.

Results

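The liver transcription factors described here are 8 genes, HNF4A, FOXA1, FOXA2, FOXA3, CEBPA, CEBPB, ONECUT1 and PROX1, taken by symbol from the 60612 genes of the deposited tables. RNA sequencing was done on 6 libraries labelled as HepG2, an established line from a human liver tumour, with liver given as the source tissue. The genotype label is ABCF1 for 3 libraries and NC-1 for the other 3. The series concerns stable transgenic lines made to overexpress ABCF1, a ribosome-associated ATP-binding cassette protein, and names forms with lysine replaced by arginine. The labels do not say which form the libraries labelled ABCF1 carry, what drives the transgene, what NC-1 stands for, whether a line is 1 clone, or whether replicate libraries were grown separately.

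Hepatocytes are specified and kept in their state by a small network of transcription factors that bind each other's genes. FOXA proteins open compacted chromatin at liver genes during development, HNF4A is the nuclear receptor that binds near most hepatocyte genes, and C/EBP alpha and beta are leucine zipper proteins that drive metabolic and acute-phase genes. ONECUT1 (HNF-6) and PROX1 act early, in the growth of the liver bud and the choice between hepatocyte and bile duct fates. All of these factors also work outside the liver, C/EBP beta in stress and inflammatory responses of many cells and HNF4A in intestine and kidney.

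Of the 8 genes, 3 were present in all 6 libraries, here meaning at least 1 RPKM in each (RPKM, the authors' unit, is scaled for transcript length and sequencing depth). They were CEBPB, CEBPA and HNF4A. FOXA1 was detected in every library below that level, FOXA3 had counts in 1 library, and FOXA2, ONECUT1 and PROX1 had no count in any. Products that mark hepatocytes were almost absent from the same libraries. None of the 12 hepatocyte markers, which include albumin, apolipoproteins, transthyretin and CYP3A4, reached 1 RPKM in all 6, so the marker profile of the labelled tissue was not seen, and the identity of the line was not tested. Their summed level was 0.174 to 0.566 CPM (counts scaled to library size) in the libraries labelled ABCF1 and 0.188 to 1.66 CPM in the NC-1 libraries.

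HNF4A is read from a pair of alternative starts, known as P2 (upstream) and P1 (downstream), which lie 45540 bases apart. P1 is the start used in adult liver, and P2 is used in pancreas and in fetal liver. They are shown because HNF4A has several transcripts from these starts, and its counts and RPKM implied a transcript length that differed between libraries. The 250 bases before each start come from RefSeq (GRCh38.p14), from chr20:44355449-44355698 for P2 and chr20:44400989-44401238 for P1, both on the plus strand and written 5′ to 3′. No base is in capitals, because none of the 3 motifs named after the sequences matched in either window.
HNF4A P2: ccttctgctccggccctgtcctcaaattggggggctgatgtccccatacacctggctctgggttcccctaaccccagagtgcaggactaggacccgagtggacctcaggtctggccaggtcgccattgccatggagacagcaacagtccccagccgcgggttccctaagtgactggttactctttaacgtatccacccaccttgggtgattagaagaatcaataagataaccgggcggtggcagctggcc
HNF4A P1: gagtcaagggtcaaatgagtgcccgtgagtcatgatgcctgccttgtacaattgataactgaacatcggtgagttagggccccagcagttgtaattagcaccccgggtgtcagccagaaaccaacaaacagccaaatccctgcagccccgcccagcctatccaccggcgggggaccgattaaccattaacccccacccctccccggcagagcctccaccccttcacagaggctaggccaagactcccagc
The motifs CAAAGTCCA for HNF4, TGTTTAC for FOXA and TTGCGCAA for C/EBP were searched on both strands. They had no match in the 8 windows that RefSeq gave for 6 of the members, and were found in 0.325%, 2.98% and 0.131% of 35116 promoter windows of the same length. GENCODE 29 lists 8 protein-coding HNF4A transcripts, of which 5 start at P2, with lengths from 540 to 6445 nucleotides.

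The libraries held 62323034 to 77394510 counts. ABCF1 itself had 6406, 7442 and 7944 counts in the libraries labelled ABCF1, against 11583, 10098 and 10635 in the NC-1 libraries, which goes against an overexpressed gene, so directions below refer to the labels as given. Its log2 fold change was -0.57 (SE 0.08, edgeR adjusted p = 0.25) and lay between -0.68 and -0.55 in all alternatives. The lower level was called by DESeq2 (adjusted p = 6.1e-08), and by edgeR in the 4 libraries that lay together (adjusted p = 0.0082), with the library set in the model (adjusted p = 8.9e-04) and with the set and the GC and length offset (adjusted p = 1.2e-04), fits that are described with the group tests. ABCF1 replicate 3 and NC-1 replicate 2 stood apart from the other 4 libraries, scoring 47.2 and 42 on the first principal component where the rest scored -29.3 to -6.96.

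CEBPB, which encodes C/EBP beta, was the most abundant of the 8 genes. Its deposited RPKM was 98.3, 108 and 112 in the libraries labelled ABCF1, against 80.2, 103 and 115 in the NC-1 libraries. NC-1 replicate 1 was the lowest library and NC-1 replicate 3 the highest, so in RPKM the group labelled NC-1 spanned the other group. In CPM the highest library was ABCF1 replicate 3, at 243 CPM against 228 CPM in NC-1 replicate 3. By mean RPKM the gene ranked 725 among 26413 genes with a count. CEBPB (ENSG00000172216) is a gene of 1 exon that spans 50190830 to 50192668 of chromosome 20, plus strand, in the authors' GRCh38 coordinates. An antisense noncoding gene, CEBPB-AS1, overlaps it by 669 bases and took 23 to 49 counts a library against 10923 to 17601 for CEBPB. The use of strand in counting is not given in the sources used here, so reads from the shared bases cannot be assigned to either strand.

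CEBPA, which encodes C/EBP alpha, a factor that halts proliferation and drives differentiation in liver and fat cells, came next. Its RPKM was 28.7, 31.6 and 33 in the libraries labelled ABCF1, against 26.5, 30.9 and 28.7 in the NC-1 libraries. These values lay close together and the groups overlapped. CEBPB was above CEBPA in 6 of 6 libraries, by 3.03 to 4.02 times in RPKM. CEBPA (ENSG00000245848) also has 1 exon and lies on the minus strand of chromosome 19, from 33299934 to 33302534. CEBPA-DT, a noncoding gene that starts beside it and runs the other way, had 227 to 394 counts, and 2 antisense genes that overlap CEBPA had 0 to 8.

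HNF4A was present at 31.2, 19.9 and 18.2 RPKM in the libraries labelled ABCF1, against 26.3, 15 and 17.2 RPKM in the NC-1 libraries. Replicate 1 of each group was the highest library of its group. CEBPA was above HNF4A in 5 of 6 libraries, the exception being ABCF1 replicate 1. Over the 6 libraries the means were 29.9 ± 2.34 RPKM for CEBPA and 21.3 ± 6.18 RPKM for HNF4A (SD). The means differed by more than either SD, but the ranges overlapped, and the difference between these 2 genes was not tested. HNF4A (ENSG00000101076) lies on the plus strand of chromosome 20 from 44355700 to 44434596. The antisense genes within it, HNF4A-AS1 and AL117382.3, had 0 counts in all 6 libraries, and MIR3646 had 0 to 3.

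FOXA1, a pioneer factor of liver, breast and prostate epithelium, was at 0.35, 0.359 and 0.27 RPKM in the libraries labelled ABCF1, against 0.533, 0.36 and 0.392 RPKM in the NC-1 libraries. That is 73 to 107 counts a library, and the mean RPKM of HNF4A was 56.4 times that of FOXA1. FOXA3, of the same family, had 4 counts in NC-1 replicate 3 and 0 in the other 5 libraries. FOXA2, ONECUT1 and PROX1 had 0 counts in all 6 libraries. A count of 0 allows up to 3 counts, or 0.0388 to 0.0481 CPM in a library, a limit that covers counting error only. The antisense genes that overlap PROX1 were at 0 as well.

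**Figure D1:**
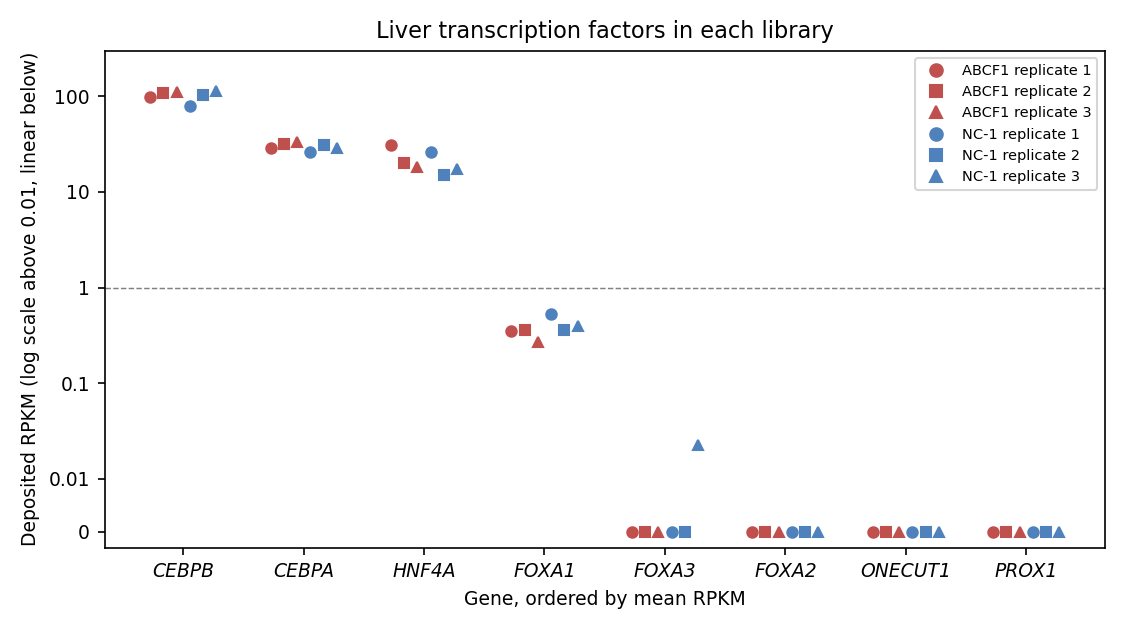
Deposited RPKM of the 8 genes in each of the 6 libraries, on an axis that is logarithmic above 0.01 and linear below it, with circles, squares and triangles for replicates 1, 2 and 3 and a dashed line at 1 RPKM. CEBPB, CEBPA and HNF4A lie above the line in every library, FOXA1 lies between 0.27 and 0.533, FOXA3 is off 0 in 1 library, and FOXA2, ONECUT1 and PROX1 are at 0.

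Relatives of the 8 factors were detected to differing extents. In the C/EBP family, CEBPD (18.2 mean RPKM) and CEBPG (10.2 mean RPKM) were present beside CEBPA and CEBPB, and CEBPE had 0 counts. ONECUT2 averaged 1.45 RPKM and ONECUT3 0.681 RPKM, while ONECUT1 was at 0. PROX2, the relative of PROX1, had 1 count in ABCF1 replicate 3, 4 in NC-1 replicate 2 and 0 in the other 4 libraries. HNF4G, the second HNF4 gene, averaged 0.539 RPKM against 21.3 for HNF4A. Of the 17 relatives listed, 11 were at 1 RPKM or more in all 6 libraries. CUX1, a cut-homeodomain repressor, had the highest mean at 119 RPKM, followed by the forkhead factors FOXM1 (54.7), FOXC1 (29.1) and FOXF1 (18.8). The genes named from this list before CUX1 were chosen after their values were seen.

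Among 29 other hepatocyte regulators, 17 were at 1 RPKM or more in all 6 libraries, 9 stayed under 0.1 RPKM in all 6, and the other 3 lay between. The highest were XBP1 (mean 89.6 RPKM), the secretory pathway factor, the bZIP repressor NFIL3 (37.3), and the nuclear receptors NR2F1 (36.5) and RXRA (34.2), the last being a partner of many liver receptors. NR0B2 and NR1I3, nuclear receptors of bile acid and drug metabolism, and GATA4 had 0 counts in all 6 libraries.

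Secreted liver proteins were mostly near 0. Of 30 such genes, 4 were at 1 RPKM or more in all 6 libraries, 17 stayed under 0.1 RPKM in all 6, and 6 (APOH, HP, ORM1, F9, PROC and HRG) had 0 counts throughout. The 26 genes with a mean under 1 RPKM summed to 61, 77 and 112 counts in the libraries labelled ABCF1, against 173, 76 and 73 in the NC-1 libraries. ALB, the albumin gene, singled out after its values were seen, had 17 counts in ABCF1 replicate 3, 33 in NC-1 replicate 1 and 0 in the other 4 libraries. The 4 present genes were the complement factors CFB (mean 24.4 RPKM) and C3 (23), the adhesive protein gene VTN (21.7), and RBP4 (10.6), the retinol carrier. None of these 4 is made by hepatocytes alone.

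Hepatocyte enzymes and transporters were split. Of 30 genes, 6 were at 1 RPKM or more in all 6 libraries, 20 stayed under 0.1 RPKM, and 15 had 0 counts in every library, among them CYP3A4, ARG1, OTC and the bile salt transporters SLC10A1 and ABCB11. The present genes included ASS1, the urea cycle enzyme that joins citrulline to aspartate, at a mean of 1593 RPKM, and CPS1, the first enzyme of that cycle, at 199.7 RPKM. PCK1, the gluconeogenic enzyme, averaged 54.6 RPKM and HPD, of tyrosine breakdown, 26.3 RPKM. The urea cycle genes therefore lay at both ends, with CPS1 and ASS1 high and OTC and ARG1 at 0. In bulk RNA, fewer cells of a type and less RNA per cell cannot be told apart.

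**Figure D2:**
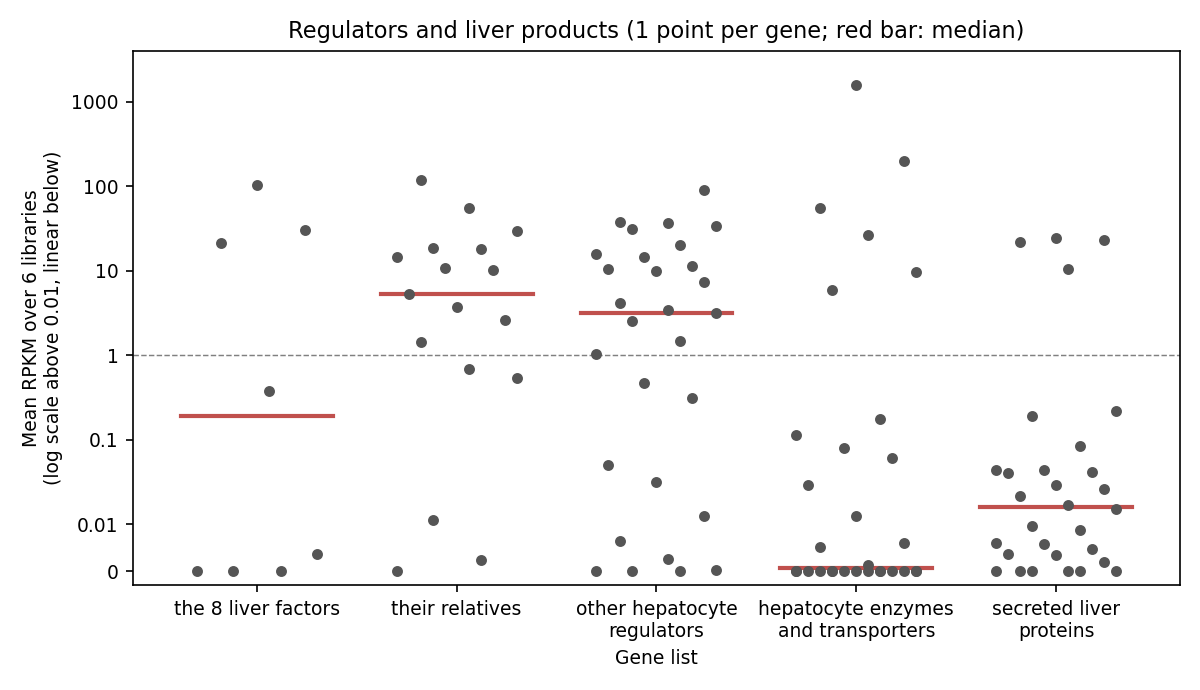
Mean RPKM over 6 libraries of each gene in 5 lists, 1 point per gene, with a red bar at the list's median and a dashed line at 1 RPKM, on an axis that is logarithmic above 0.01 and linear below it. The medians are 0.191 for the 8 liver factors, 5.33 for their relatives, 3.18 for other hepatocyte regulators, 0.000645 for hepatocyte enzymes and transporters, and 0.0161 for secreted liver proteins.

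Between the groups, 4 of the 8 factors could be tested, because FOXA2, FOXA3, ONECUT1 and PROX1 did not pass the filter on low counts. None of the 4 was called at an adjusted p under 0.05 by edgeR's quasi-likelihood test, and 0 of 16545 tested genes (0%) was called, while an unadjusted p under 0.05 was reached by 1037 genes upward and 1413 downward, and the DESeq2 Wald test called 626. None of the 4 members had an unadjusted p under 0.05, a mark that 14.8% of all tested genes passed, and none was called by DESeq2, which called 3.78% of genes and gave FOXA1 no adjusted p. Fold changes are libraries labelled ABCF1 over NC-1. Since separate growth of the replicates is not stated, the p-values describe library-to-library spread, which may be technical.

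HNF4A stood at 121, 118 and 102 CPM in the libraries labelled ABCF1, against 105, 92 and 104 CPM in the NC-1 libraries. ABCF1 replicate 3 lay among the NC-1 libraries and NC-1 replicate 2 was the lowest. The means were 114 ± 10.1 CPM and 100.3 ± 7.22 CPM (SD, n = 3 each), and the log2 fold change was 0.18 (SE 0.10, edgeR adjusted p = 0.44). The means differed by more than either SD, but the groups overlapped and the difference was not called.

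CEBPA stood at 82.9, 93.1 and 101 CPM in the libraries labelled ABCF1 against 71.3, 87.4 and 80.4 CPM in the NC-1 libraries. The groups overlapped, with ABCF1 replicate 1 below NC-1 replicate 2. The log2 fold change was 0.21 (SE 0.12, edgeR adjusted p = 0.42). CEBPB stood at 201, 225 and 243 CPM against 153, 207 and 228 CPM. NC-1 replicate 1 was far the lowest, and the means were 223 ± 21.3 CPM against 196 ± 39.1 CPM (SD, n = 3 each). The log2 fold change of CEBPB was 0.19 (SE 0.16, edgeR adjusted p = 0.6), and without NC-1 replicate 1 it was 0.04 and without NC-1 replicate 3 it was 0.31.

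FOXA1 was the only tested member with a lower mean in the libraries labelled ABCF1, at 1.16, 1.43 and 1.12 CPM against 1.49, 1.38 and 1.48 CPM. The groups overlapped through ABCF1 replicate 2 and NC-1 replicate 2. The log2 fold change was -0.23 (SE 0.24, edgeR adjusted p = 0.69), and leaving out ABCF1 replicate 2 moved it to -0.36.

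**Figure D3:**
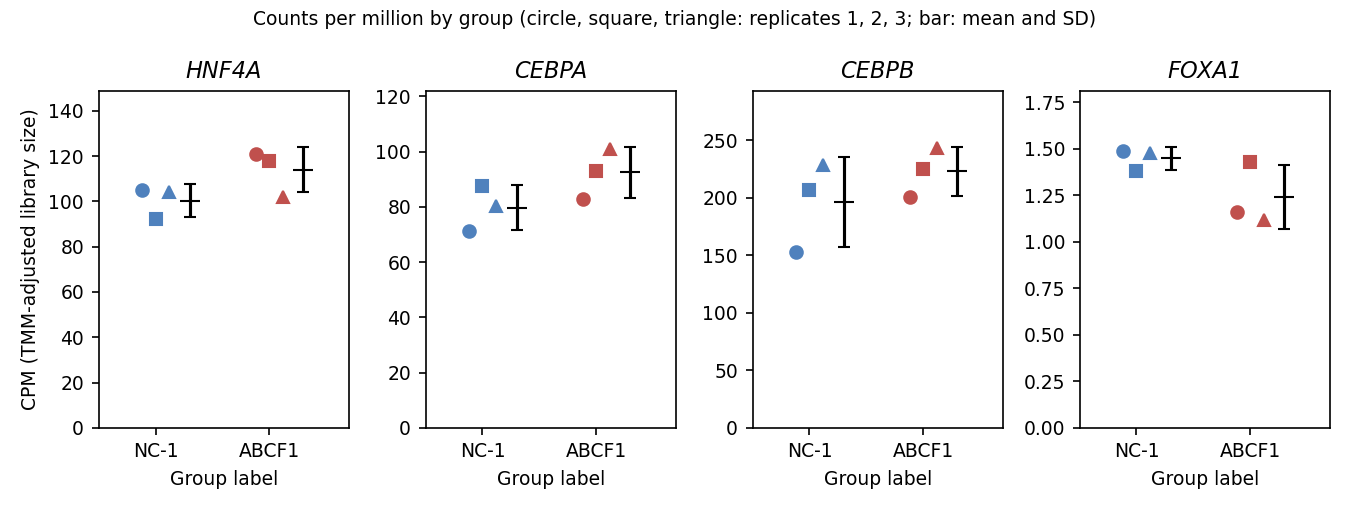
CPM, scaled to TMM-adjusted library size, of the 4 tested genes in the 3 libraries of each group label, with circles, squares and triangles for replicates 1, 2 and 3 and a black bar for mean and SD, on axes that start at 0. The groups overlap for all 4 genes, and the NC-1 libraries of CEBPB spread from 153 to 228 CPM.

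The libraries that stood apart bear on these tests, and results are therefore given with and without them. With the side of the first principal component (the library set) as a covariate, edgeR called 25.3% of genes, 12.9% higher and 12.5% lower. In that fit 2 of the 4 tested members were called higher, HNF4A (log2 fold change 0.18, SE 0.05, edgeR adjusted p = 0.017) and CEBPA (0.21, SE 0.06, edgeR adjusted p = 0.031), while CEBPB (adjusted p = 0.3) and FOXA1 (adjusted p = 0.59) were not. The set was read from the same counts, so these are not p-values of a planned design. Without ABCF1 replicate 3 and NC-1 replicate 2, 10.8% of genes were called, and of the members HNF4A was (0.20, SE 0.05, edgeR adjusted p = 0.047), with CEBPA at an adjusted p of 0.12.

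The GC content of transcripts moved with the groups. Across 16357 tested genes, which are not independent replicates, the log2 fold change had a Spearman rho of 0.49 with the GC percentage of the longest transcript and -0.28 with its length. CEBPA (65.9% GC) and CEBPB (66.2% GC) were richer in GC than 97.4% and 97.6% of tested genes, HNF4A (52.8%) than 62.2% and FOXA1 (51.3%) than 57%. After removal of each library's smooth trend with GC and length, the log2 fold change of CEBPA was 0.03 (SE 0.08) and that of CEBPB -0.03 (SE 0.13), a change of sign for CEBPB. HNF4A kept 0.16 (SE 0.07) and FOXA1 was at -0.30 (SE 0.25), and none of the 4 was called in this edgeR fit, nor was any other gene. The value for HNF4A rests on its 6445-nucleotide transcript. The other HNF4A transcripts in GENCODE 29 had 54.94% to 61.22% GC, and an offset from any of them was not tested. With this correction and the library set together, 5.81% of genes and 0 of the 4 members were called, HNF4A at 0.16 (SE 0.04, edgeR adjusted p = 0.056) and CEBPA at 0.04 (SE 0.05, edgeR adjusted p = 0.77).

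**Figure D4:**
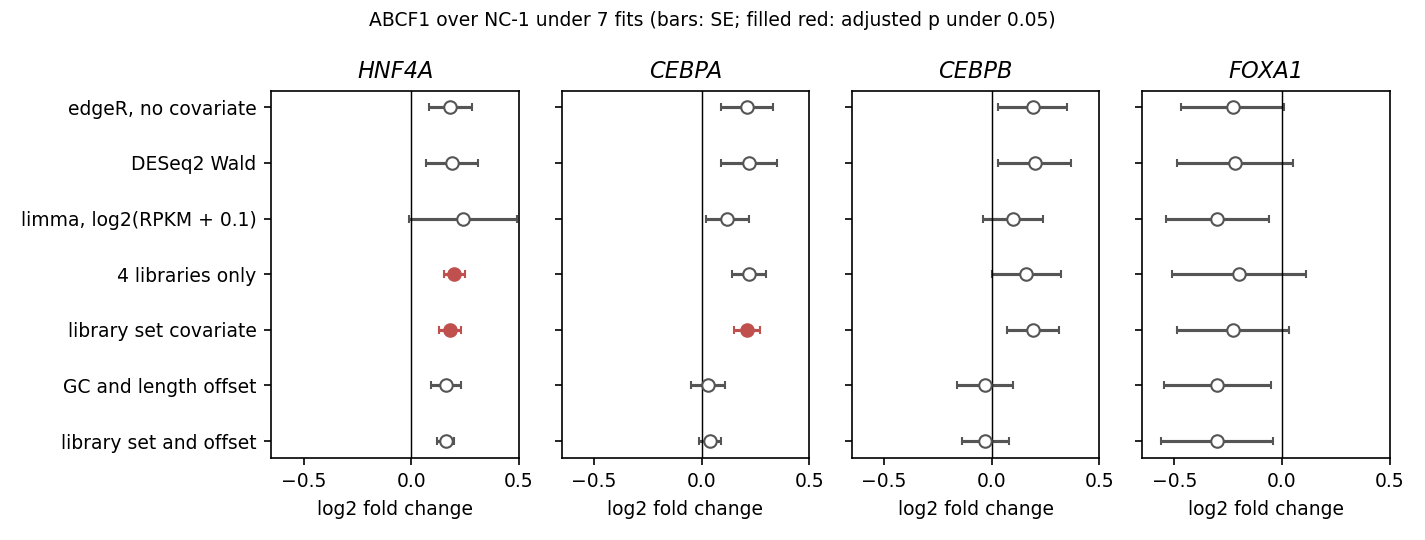
Log2 fold change of the libraries labelled ABCF1 over those labelled NC-1 with its standard error for the 4 tested genes under 7 fits, filled red where the adjusted p was under 0.05. HNF4A stays between 0.16 and 0.24 in these fits and is called in 2 of them, CEBPA goes from 0.21 to 0.03 with the GC and length offset, and CEBPB goes from 0.19 to -0.03.

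The 2 deposited tables differed in how HNF4A and FOXA1 varied across libraries. In RPKM the highest HNF4A library was 2.08 times the lowest, against 1.32 times in CPM from counts. For FOXA1 the ratio was 1.98 in RPKM and 1.34 in CPM. The spread was smaller in RPKM for the other tested members, at 1.24 against 1.42 in CPM for CEBPA and 1.44 against 1.59 for CEBPB. These CPM were scaled to TMM-adjusted library sizes, with factors from 0.9361 (ABCF1 replicate 3) to 1.047 (NC-1 replicate 3). The share of this scaling in the ratios was not tested. Counts divided by RPKM and by the library total give the transcript length to which RPKM was scaled, set here to the same median in each library. For HNF4A this length was 3880, 5777 and 5247 nucleotides in the libraries labelled ABCF1, against 4270, 6160 and 6191 in the NC-1 libraries. It was shortest in replicate 1 of each group, where RPKM was highest, and it did not separate the groups.

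The highest HNF4A length was 1.60 times the lowest, a ratio above that of 98% of 11143 genes with at least 200 counts in each library, whose median was 1.05. The lengths of CEBPA and CEBPB, genes of 1 exon, differed by 1.01 times. For FOXA1, which had too few counts to be ranked this way, the length was 3307, 3889 and 3873 nucleotides in the libraries labelled ABCF1, against 2992, 3859 and 3884 in the NC-1 libraries, a ratio of 1.30. It too was shortest in replicate 1 of each group. The order of HNF4A and CEBPA by level therefore depends on the length used for HNF4A. Which HNF4A transcripts were assigned reads, from P1 or from P2, was not analysed here.

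**Figure D5:**
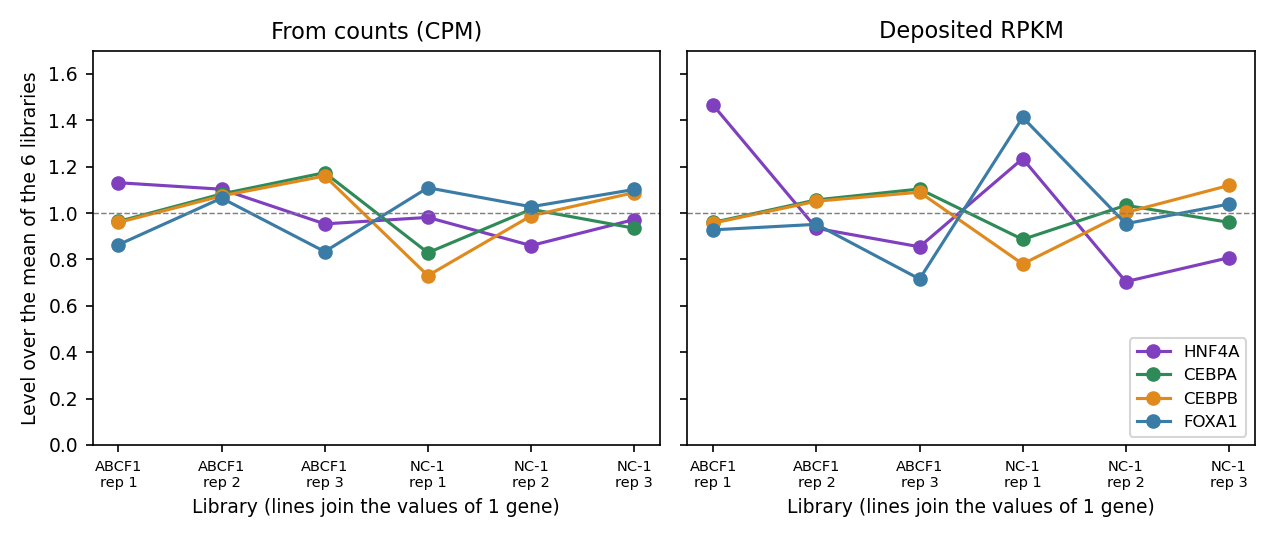
Level of HNF4A, CEBPA, CEBPB and FOXA1 in each library divided by that gene's mean over the 6 libraries, from counts (CPM, left) and from deposited RPKM (right), with lines joining the libraries of 1 gene. CEBPA and CEBPB keep a like pattern in both panels, while in RPKM HNF4A runs from 0.70 to 1.47 of its mean with its peaks in replicate 1 of each group, and FOXA1 from 0.71 to 1.41 with its peak in NC-1 replicate 1.

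Gene lists around the factors gave 0 calls in the edgeR test between the groups, as did all 16545 tested genes. The 21 tested regulators outside the 8 had a median log2 fold change of 0.00, equal to the 0.00 of all tested genes, and the 14 tested relatives -0.06. With a library set term, where 12.9% of all genes were higher and 12.5% lower, 2 of the 21 were higher and 2 lower, and 3 of the 14 relatives were lower and 0 higher. With the GC and length correction added, where 3.86% of all genes were higher and 1.95% lower, 0 of the 21 were higher and 2 lower, and none of the 14 was called. Of 19 tested C/EBP cofactors and targets outside the liver, where ADM, ATF4, SOCS3 and TRIB3 were the most abundant, 11 had positive fold changes (median 0.04). With the set term 3 of the 19 were higher and 0 lower, beside 12.9% and 12.5% of all genes, and with the correction added 0 were higher and 1 lower. The 3 were SOCS3, TRIB3 and HMOX1 (edgeR adjusted p = 0.0052, 0.017 and 0.035). The 1 was ATF4, whose log2 fold change was 0.04 with the set term and -0.16 with the correction added (SE 0.04, edgeR adjusted p = 0.047). TRIB3, a pseudokinase of the stress response, was at 95.2 ± 3.36 CPM against 82.2 ± 3.42 CPM (SD, n = 3), with an edgeR adjusted p of 0.32 without the set, 0.017 with it and 0.83 with the correction added.

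FOXA partners and targets outside the liver had 14 tested members with a median log2 fold change of 0.15, and 3 were higher and 0 lower with a library set term, beside 12.9% and 12.5% of all genes. With the correction added 0 were higher and 0 lower and the median was 0.05. The 3 were KRT18, KRT8 and MUC1, whose edgeR adjusted p went to 0.82, 0.38 and 0.071. Their most abundant members were the keratins KRT8 (mean 759 RPKM) and KRT18 (676 RPKM), XBP1 and the mucin MUC1 (37.3 RPKM), while TFF3, GRHL2 and KLK3 had 0 counts in all 6 libraries. Repressors and opponents of HNF4A, among them MYC (118 RPKM), HDAC3 (45.1 RPKM) and CTBP2 (24.4 RPKM), had 15 tested members with a median of -0.15. With the set term, which called 25.3% of all genes, 2 were higher and 6 lower. With the GC and length correction added, which called 5.81% of all genes, 0 were higher and 1 lower.

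Of the liver products, those that passed the filter on low counts were not called between the groups, where edgeR called 0 of all 16545 tested genes. The tested products include genes under 1 RPKM. Among secreted proteins 5 were tested with a median log2 fold change of 0.12, and VTN had 43 ± 1.5 CPM against 35.2 ± 2.53 CPM (SD, n = 3, edgeR adjusted p = 0.27). Among enzymes and transporters 10 were tested with a median of 0.06. ASS1 was at 2994 ± 272 CPM against 2416 ± 45.6 CPM (SD, n = 3, edgeR adjusted p = 0.26), and CPS1 at 1219 ± 218 CPM against 1263 ± 207 CPM (edgeR adjusted p = 0.91). With a library set term, 1 of the 5 secreted proteins and 3 of the 10 enzymes and transporters were higher and none lower, beside 12.9% of all genes higher. With the correction added 0 and 1 were higher, beside 3.86% of all genes. The 1 was PCK1, at 276 ± 16.6 CPM against 244 ± 17.4 CPM (SD, n = 3). Its log2 fold change was 0.18 without the set, 0.18 with it and 0.21 with the correction added (edgeR adjusted p = 0.42, 0.015 and 0.012). VTN, ASS1 and HPD were called with the set term only, and their edgeR adjusted p was 0.43, 0.1 and 0.22 with the correction added.

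Over the 6 libraries, the genes whose log2 CPM followed HNF4A most closely among 9484 genes of 10 CPM or more were IL4R, DNAJC5 and GOT2, with Pearson r of 0.999, 0.996 and 0.996. For CEBPB they were the pseudogene RPSAP47, ZFPM1 and TUT1, with r of 0.993, 0.987 and 0.980. An r above 0.95 was reached by 159 genes for HNF4A and by 7 for CEBPB. These libraries share depth and GC differences, and the values are given as a description.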

How the data were processed

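RNA was extracted with Trizol and made into TruSeq libraries, per the labels' protocols. The authors deposited a table of counts, whole numbers per gene without normalization, and a table of RPKM, each with 60612 genes in 6 libraries. The submitters' processing notes name GRCh38 as build, and list HISAT2, StringTie, Trimmomatic, FastQC, edgeR and CASAVA 1.8 without roles. Annotation release and counting settings: not given in the sources used here.

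The main test was the quasi-likelihood test of edgeR 4.0.16 (R 4.3.3) on counts after filterByExpr and TMM scaling, with Benjamini-Hochberg adjustment over 16545 genes and calls at an adjusted p under 0.05. The standard error is the size of the log2 fold change over the square root of F. The test was also run on simulated counts that held no library set and no GC trend, and the outcome is not reported here. Alternatives used DESeq2 1.42.0, limma 3.58.1 on log2(RPKM + 1) or log2(RPKM + 0.1), other filters, the replicate number, each library left out, the library set, and a per-gene offset for GC and length (mgcv 1.9.3, GENCODE 29 longest transcript, 98.9% of tested genes). Of annotated genes, 76.9% had identical coordinates there. A pseudocount makes the log2 fold changes from RPKM too small for low genes.

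The 8 members, the gene lists, the library set and the alternatives were chosen with earlier results of these data known. The 4 genes with the highest mean RPKM of a list, genes called by the edgeR test, and genes at 0 counts in all libraries were to be named, and other names are marked as chosen later. Some genes that this rule names are not reported here. For the 2 members with the highest mean CPM, the 3 genes of 10 CPM or more with the highest Pearson r over the 6 libraries were named.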

Additional observations from a re-analysis of the deposited data

How the results depend on the processing

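The count of factors at 1 RPKM or more in all 6 libraries was 3, and it was 3 with a limit of 0.5 RPKM, of 2 RPKM, or of a mean of 1 RPKM. The count of genes called between the groups was 0 in the edgeR test and 626 with the DESeq2 Wald test, 1803 in the 4 libraries that lay together, 4193 with the library set as a covariate, and 950 with the library set and the GC and length offset. The count of factors called was 0, but 1 in those 4 libraries and 2 with the library set. Under the other alternatives both counts stayed at 0. Over 17 alternatives the log2 fold change ran from 0.12 to 0.26 for HNF4A, from 0.03 to 0.29 for CEBPA and from -0.36 to -0.11 for FOXA1. That of CEBPB ran from -0.03 to 0.31 and changed sign under the GC and length offset, to -0.03 both with and without the library set. Leaving out each library gave 0.12 to 0.26 for HNF4A, 0.14 to 0.29 for CEBPA, 0.04 to 0.31 for CEBPB and -0.36 to -0.16 for FOXA1. The replicate block called 0 genes and 0 factors. Same-numbered libraries did not deviate together across the tested genes (Pearson r of 0.11, -0.11 and -0.15). The highest r, 0.26, was between ABCF1 replicate 3 and NC-1 replicate 2, the libraries that stood apart. These values cannot show whether same-numbered libraries were handled together. The implied lengths of HNF4A and FOXA1 were shortest in replicate 1 of both groups. FOXA1, at 73 to 107 counts, had the largest standard error of the 4 in the edgeR test, and the differences of FOXA2, FOXA3, ONECUT1 and PROX1 were not detectable at this depth. The cause of the changes between settings was not tested.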

Other observations

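Markers of other cell types were looked up in the same libraries, as values. Among 8 bile duct markers 5 were at 1 RPKM or more in all 6 libraries, among them KRT7 (mean 141 RPKM), SOX9 (11.5) and EPCAM (6), while SPP1 had 0 counts. Among 9 mesenchymal markers 4 were, led by VIM (797 RPKM), COL1A1 (12.9) and ZEB1 (4.04), and COL1A2 had 0 counts. Of 10 squamous markers 2 were, SFN (172 RPKM) and KLF5 (33), and of 9 trophoblast markers 2 were, CGA (2277 RPKM), the shared alpha subunit of glycoprotein hormones, and TFAP2C (10.6), with CGB3, ELF5, ERVW-1 and HLA-G at 0 counts.

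None of the markers of intestine (8 genes), lung (6), kidney tubule (8) or blood (8) was at 1 RPKM or more in all 6 libraries, and CDX1 and CDX2, the intestinal homeobox genes, had 0 counts. Of luminal breast markers TFF1 (1.69 RPKM) was, of endothelial markers ERG (1.86 RPKM), and of neuronal markers TUBB3 (60.8 RPKM) and SNAP25 (2.12 RPKM). The edgeR test without covariates called none of these genes between the groups, and 0 of all 16545 tested genes. CGA was at 2039.8 ± 241 CPM in the libraries labelled ABCF1 and 1549 ± 175 CPM in the NC-1 libraries (SD, n = 3 each), a log2 fold change of 0.40 (SE 0.12, edgeR adjusted p = 0.26). With a library set term its edgeR adjusted p was 0.00091, and with the GC and length offset added 0.00053 at the same fold change. VIM had a log2 fold change of 0.17 in all of these fits, with edgeR adjusted p of 0.37, 0.013 and 0.016. With the library set term, which called 25.3% of all genes, SFN, PAX8 and TUBB3 were also higher and KLF5, ZEB1 and SNAP25 lower, genes named after their values were seen. None of these was called with the offset added, which called 5.81% of all genes, and their edgeR adjusted p was then 0.85 for SFN, 0.14 for PAX8, 0.24 for TUBB3, 0.068 for KLF5, 0.067 for ZEB1 and 0.093 for SNAP25.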
